A study of Mus musculus with 16 samples.

Results

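The 10 genes described here mark tissue-resident, alternatively activated macrophages: *Mrc1*, *Cd163*, *Lyve1*, *Folr2*, *Timd4*, *Csf1r*, *Adgre1*, *Retnla*, *F13a1* and *Cbr2*. The members were chosen by symbol, and all 10 were found among the 49066 genes of the brown adipose tissue (BAT) libraries. The choice was made with TPM differences of these libraries already known, above all that between KO and WT mice in males. The male values are therefore given as a description with no test. Their 95% CIs are those of the mean difference and rest on the spread between mice.

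BAT was sequenced from 4 mice of each sex and genotype (WT and KO) on the C57BL6/J background, 1 library per mouse. All groups carried *Gdf15* fl/fl alleles; the KO mice (GDF15 BKO) also carried the transgene Tg(Ucp1-cre)1Evdr, in which the *Ucp1* promoter drives Cre in thermogenic adipocytes, and the WT littermates did not. A high-fat diet with 60% of kcal from fat (HFD) was given from 6 weeks of age for 12 weeks, and the mice were 18 weeks old at collection. The study housed mice singly at 30 °C for calorimetry after week 11 of the diet, a step run in some mice only, and whether the sequenced mice were among them is not stated. The authors deposited TPM, a measure of transcript abundance that is corrected for transcript length and adds up to 1000000 in every library. Levels of different genes can therefore be ranked, but read numbers are not known, so counting error cannot be stated.

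Resident macrophages live in most tissues, clear dying cells and debris, and renew themselves locally or from monocytes. Their survival depends on the receptor *Csf1r* and its ligands, and signals such as interleukin 4 drive an alternatively activated state in which scavenger receptors and *Retnla* are made. In adipose tissue such cells lie along vessels and among adipocytes, and in BAT they have been studied for their part in clearing vesicles and debris and in remodelling. In bulk tissue, fewer macrophages and less RNA per macrophage cannot be told apart.

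The libraries had the markers of BAT: *Ucp1* ranged from 2353 to 4423 TPM. *Gdf15* ranged from 0.368 to 3.81 TPM in male WT and from 0.0801 to 0.272 TPM in male KO mice, and from 0.0622 to 0.311 TPM in female WT and from 0 to 0.0794 TPM in female KO mice, where the groups overlapped. *Xist* and *Ddx3y* matched the labelled sex in every library. Between 58140 and 65746 transcripts per library were above 0, and mitochondrial transcripts took 34.5 to 59.8% of the TPM. In female WT replicate 4, a single transcript with no match in the annotation took 16.5% of the TPM, so the median of the members in females is also given without it. The library names begin with 5, 8b, 9 or 10, whose meaning is not stated.

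In males, the members were higher in KO than in WT mice. On the log2(TPM + 0.5) scale, all 8 members with a mean of at least 1 TPM had a higher mean in KO mice, with differences from 0.49 for *Cd163* to 1.37 for *Retnla* and a median of 0.83 against 0.16 over all 12176 genes of the male comparison, of which 79.9% had a higher mean in KO mice. Of these 8, 4 had every KO mouse above every WT mouse (*Folr2*, *Csf1r*, *Retnla* and *Cbr2*), against 9.55% of all genes. After the libraries were scaled by median-of-ratios factors, the median of all genes was 0.01 and that of the members 0.70, and over all genes 1042 were higher and 862 lower at an unadjusted p under 0.05 (limma), in place of 2150 and 130. Because this comparison was known when the list was made, nothing is read from these counts. In females, the same 8 members showed no common direction: 3 were higher and 5 lower in KO mice, with a median of -0.10 against 0.10 over 12141 genes, of which 62.7% were higher. No member passed the adjusted threshold of 0.05 (limma; 0.0% of genes passed), 1 of 8 had an unadjusted p under 0.05 (*Cbr2*, higher, against 11.6% of genes), and 1 had every KO mouse below every WT mouse (*Mrc1*, against 3.19% of genes). Without female WT replicate 4 the female median was -0.19.

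**Figure D1:**
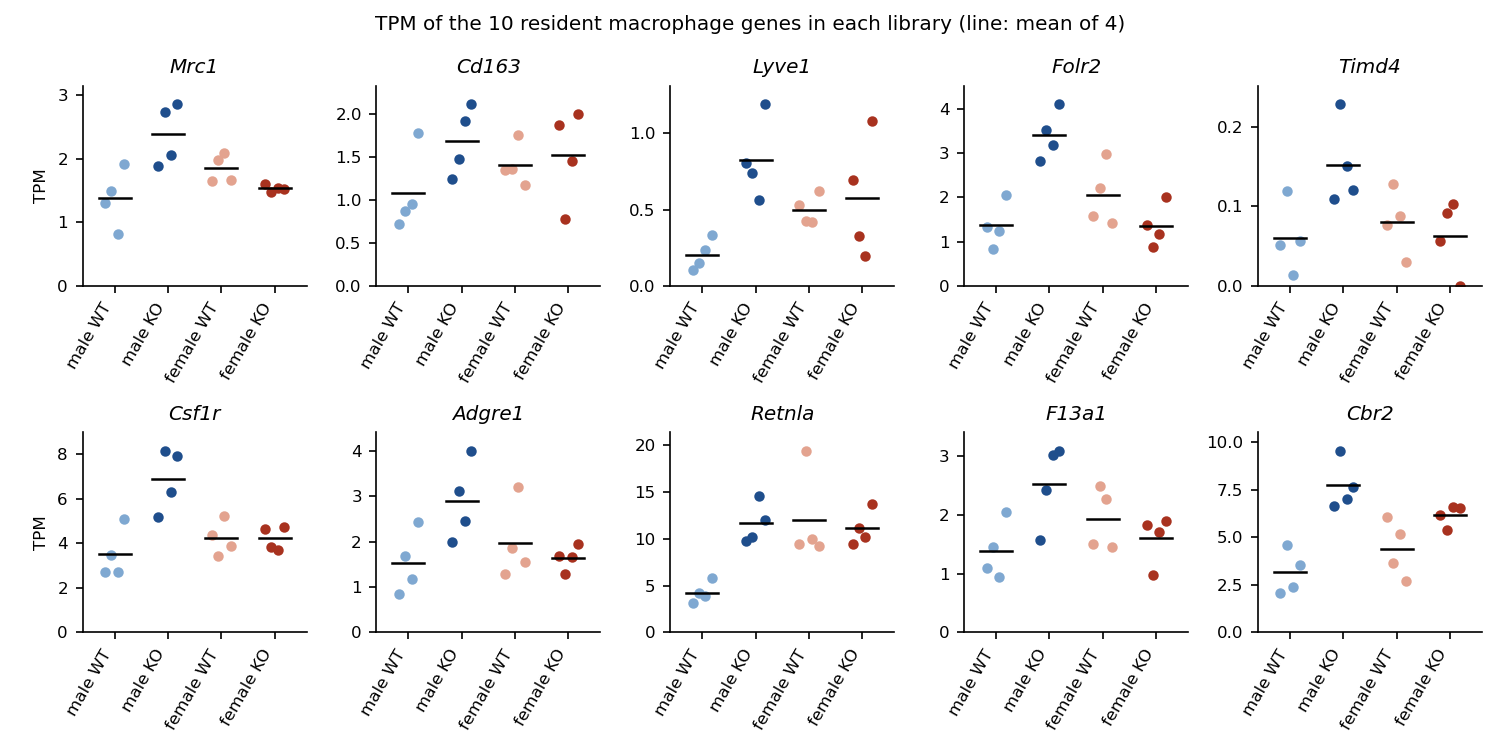
TPM of each of the 10 genes (vertical axes, each starting at 0) in the 16 libraries, as points by group, with a line at the mean of 4 mice. For *Folr2*, *Lyve1*, *Csf1r*, *Retnla* and *Cbr2* all 4 male KO points lie above all 4 male WT points, whereas the female groups overlap for each of these 5 genes.

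By mean TPM over the 16 libraries, *Retnla* was the highest member (9.77), followed by *Cbr2* (5.36) and *Csf1r* (4.71). *Folr2* (2.05), *Adgre1* (2.01), *F13a1* (1.86), *Mrc1* (1.79) and *Cd163* (1.43) followed within a range smaller than the SD of *Folr2* over the libraries (1.0). Of the *Cbr2* level, 29.0% and 13.9% came from its retained-intron transcripts. The group means of its protein-coding transcripts were 2.47 to 3.36 TPM, under those of *Csf1r* (3.49 to 6.85). *Lyve1* (0.525) and *Timd4* (0.0890) stayed under the minimum mean of 1 TPM in every comparison and are given as values with no test. *Timd4* was listed at 0 in 1 library, and the other members were above 0 in all 16.

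Among the uptake receptors, *Mrc1* (ENSMUSG00000026712) encodes the mannose receptor CD206, a widely used marker of alternatively activated macrophages. Its TPM was 1.31, 1.5, 0.814 and 1.91 in male WT mice and 1.89, 2.73, 2.05 and 2.86 in male KO mice. Only WT replicate 4 reached into the KO range, where it was just above KO replicate 1. The KO mean was higher by 0.63 on the log2 scale (95% CI 0.15 to 1.11). Female WT mice had 1.66, 1.99, 2.09 and 1.67 TPM, and female KO mice had 1.60, 1.47, 1.54 and 1.52. Every female KO value was under every female WT value, but the gap between the groups was small and the 4 KO values lay close together. The female difference was -0.20 (95% CI -0.54 to 0.13), which did not pass the test (limma, adjusted p = 0.47).

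*Folr2* (ENSMUSG00000032725), the folate receptor beta, had the largest male difference of the uptake receptors on the log2(TPM + 0.5) scale. Its TPM was 1.34, 0.834, 1.25 and 2.06 in male WT mice and 2.82, 3.52, 3.19 and 4.11 in male KO mice. The male groups did not overlap, and the log2 difference was 1.09 (95% CI 0.63 to 1.56). In females the order was the other way round: WT mice had 1.58, 2.21, 2.98 and 1.43 TPM and KO mice 1.37, 0.891, 1.18 and 2.01. WT replicates 2 and 3 were above all KO mice, whereas the other values were mixed. The female difference of -0.45 (95% CI -1.02 to 0.13) did not pass the test (limma, adjusted p = 0.377), and it ran from -0.60 to -0.28 when each female library was left out in turn.

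*Cd163* (ENSMUSG00000008845), the receptor that takes up haemoglobin bound to haptoglobin, had the smallest male difference of the tested members. It ranged from 0.723 to 1.78 TPM in male WT and from 1.25 to 2.11 TPM in male KO mice, and the groups overlapped through WT replicate 4. The male log2 difference was 0.49 (95% CI -0.03 to 1.02). In females it ranged from 1.17 to 1.75 TPM in WT and from 0.783 to 2.0 TPM in KO mice, with a difference of 0.05 (95% CI -0.50 to 0.60; limma, adjusted p = 0.923).

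*Lyve1* (ENSMUSG00000030787), a hyaluronan receptor shared by perivascular macrophages and lymphatic endothelium, was low throughout. Male WT mice had 0.102, 0.147, 0.238 and 0.333 TPM, and male KO mice had 0.808, 0.739, 0.560 and 1.19. The lowest KO value was above the highest WT value, and the group means were 0.205 and 0.824 TPM, the widest male ratio of the receptors. The log2 difference of 0.90 understates the change of a gene at this level. Female WT mice, at 0.416 to 0.624 TPM, were also all above the male WT mice, and female KO mice ranged from 0.198 to 1.08 TPM. *Timd4* (ENSMUSG00000055546), a phosphatidylserine receptor of long-lived resident macrophages, did not exceed 0.228 TPM in any library. Its group means were 0.0602 TPM in male WT, 0.152 in male KO, 0.0807 in female WT and 0.0626 in female KO mice, and KO and WT mice overlapped within each sex.

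*Csf1r* (ENSMUSG00000024621) encodes the receptor for colony-stimulating factor 1 and interleukin 34, on which most macrophages depend. Male WT mice had 2.72, 3.48, 2.72 and 5.10 TPM, and male KO mice had 5.19, 8.14, 6.27 and 7.89. The groups were separate, with WT replicate 4 just under KO replicate 1. The male log2 difference was 0.90 (95% CI 0.43 to 1.37). Female WT mice had 4.36, 3.43, 5.23 and 3.88 TPM, and female KO mice had 4.62, 3.85, 3.67 and 4.74. The female groups covered the same range, and their difference was 0.01 (95% CI -0.33 to 0.34; limma, adjusted p = 0.987). *Adgre1* (ENSMUSG00000004730) encodes F4/80, the usual surface marker of mouse macrophages. It ranged from 0.843 to 2.42 TPM in male WT, from 1.99 to 4.0 in male KO, from 1.28 to 3.2 in female WT and from 1.29 to 1.94 in female KO mice. Male WT replicate 4 and female WT replicate 3 were the high values of their groups. Its log2 difference was 0.76 in males (95% CI 0.15 to 1.38) and -0.16 in females (95% CI -0.70 to 0.39; limma, adjusted p = 0.732).

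*Retnla* (ENSMUSG00000061100), which encodes the secreted protein RELM-alpha and is induced by interleukin 4 and interleukin 13, was the member in which male WT mice stood apart most from all other groups. They had 3.12, 4.17, 3.87 and 5.77 TPM, whereas male KO mice had 9.79, 10.2, 14.6 and 12.1. Female WT mice had 9.49, 19.4, 9.99 and 9.28 TPM, and female KO mice had 9.48, 11.1, 10.2 and 13.7. The highest male WT value was below the lowest value of each of the other 3 groups, and those 3 groups overlapped one another. The male KO difference was 1.37 (95% CI 0.95 to 1.79), the female KO difference was -0.05 (95% CI -0.59 to 0.49; limma, adjusted p = 0.921), and the difference of male from female WT mice was -1.37 (95% CI -1.94 to -0.79). The sex difference in WT mice did not pass the threshold over all genes (limma, adjusted p = 0.391). Without the high female WT replicate 2 it was -1.12. It passed the threshold only with all 16 libraries in a single fit (limma, adjusted p = 0.0302). The male WT libraries are those of the KO comparison that was known when the list was made. Nothing is therefore read from that fit, and sex and library prefix cannot be told apart in WT mice.

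*F13a1* (ENSMUSG00000039109), the A subunit of coagulation factor XIII that platelets and macrophages make, ranged from 0.939 to 2.04 TPM in male WT and from 1.57 to 3.09 TPM in male KO mice. KO replicate 1 fell among the WT mice and the other 3 KO mice were above all of them. The male log2 difference was 0.69 (95% CI 0.15 to 1.23). In females the values ran from 1.45 to 2.49 TPM in WT and from 0.970 to 1.90 TPM in KO mice, and the difference was -0.21 (95% CI -0.72 to 0.31; limma, adjusted p = 0.628).

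*Cbr2* (ENSMUSG00000025150), carbonyl reductase 2, an enzyme that reduces carbonyl compounds and marks resident macrophages in several mouse tissues, was the member with a higher KO mean in both sexes by more than the median of all genes in each. Male WT mice had 2.09, 4.62, 2.39 and 3.54 TPM, and male KO mice had 6.67, 9.56, 7.04 and 7.66. Female WT mice had 6.08, 3.63, 5.18 and 2.68 TPM, and female KO mice had 6.17, 5.36, 6.59 and 6.54. The male groups were separate, and in females 3 of 4 KO mice were above all WT mice. The log2 difference was 1.21 in males (95% CI 0.71 to 1.71) and 0.50 in females (95% CI 0.01 to 0.99), and the female difference did not pass after adjustment (limma, adjusted p = 0.289). When each female library was left out in turn, the female difference ran from 0.31 to 0.66.

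The transcripts annotated for *Cbr2* differed between the groups to unequal degrees, a pattern that was picked out after the values were seen. The longer protein-coding transcript, of 1110 bases, averaged 2.43 TPM in male WT, 2.53 in male KO, 2.50 in female WT and 2.44 in female KO mice. These means differed by less than the SD within any of the groups (0.574 to 1.07 TPM). The other protein-coding transcript, of 461 bases, ranged from 0 to 0.159 TPM in male WT, 0 to 1.53 in male KO, 0 to 2.14 in female WT and 0 to 2.03 in female KO mice, so its groups overlapped in both sexes. A retained-intron transcript of 513 bases ranged from 0 to 0.724 TPM in male WT and from 2.08 to 3.6 TPM in male KO mice. In females it ranged from 0.453 to 1.09 TPM in WT and from 1.78 to 2.80 TPM in KO mice. All 8 KO libraries were above all 8 WT libraries for this transcript, which was the case for 0.27% of 24073 transcripts with a mean of at least 1 TPM and for 0.335% of 3883 retained-intron transcripts among them. The other retained-intron transcript averaged 0.315 TPM in male WT and 1.42 in male KO mice, and 0.408 in female WT and 0.839 in female KO mice. With protein-coding transcripts alone, the *Cbr2* difference was 0.43 in males and -0.02 in females. Retained-intron transcripts of all genes took 5.53 to 6.22% of the nuclear TPM in male WT, 5.74 to 5.92% in male KO, 5.52 to 6.03% in female WT and 5.94 to 6.75% in female KO libraries. Whether that share has a part in the *Cbr2* values was not tested.

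**Figure D2:**
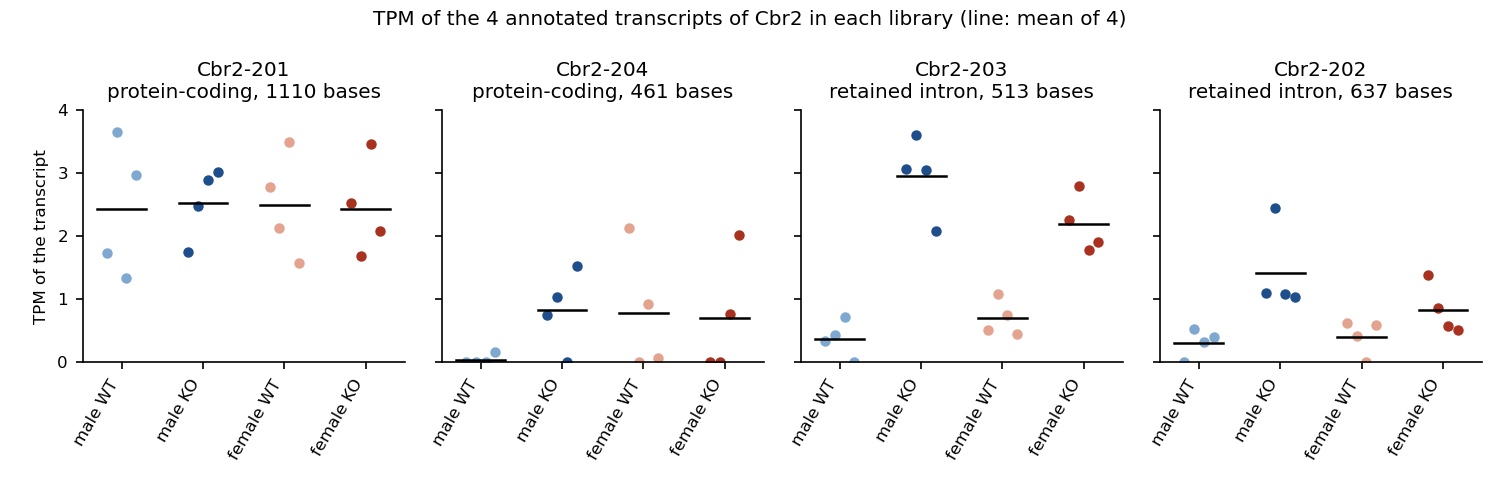
TPM of the 4 annotated *Cbr2* transcripts (vertical axes from 0) in each library, as points by group, with a line at the mean of 4 mice. The protein-coding transcript of 1110 bases averages 2.43 to 2.53 TPM in all 4 groups, whereas every KO point of the retained-intron transcript of 513 bases, in both sexes, is above every WT point.

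*Retnla* and *Timd4* have a single transcript each in the files. The protein-coding transcripts of *Folr2* averaged 1.24 TPM in male WT and 3.05 in male KO mice, and those of *Mrc1* averaged 1.23 and 2.03. For *Cd163* they averaged 0.694 TPM in male WT, 1.05 in male KO, 1.01 in female WT and 0.848 in female KO mice, and its 1 other transcript averaged 0.388, 0.639, 0.397 and 0.680. Single isoforms were less stable: a protein-coding *Csf1r* transcript of 3870 bases ranged from 0.221 to 6.82 TPM within the male KO mice alone, while another of 4701 bases ranged from 1.18 to 4.87 in the same mice. Single isoforms of *Csf1r* are therefore not compared between the groups.

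**Figure D3:**
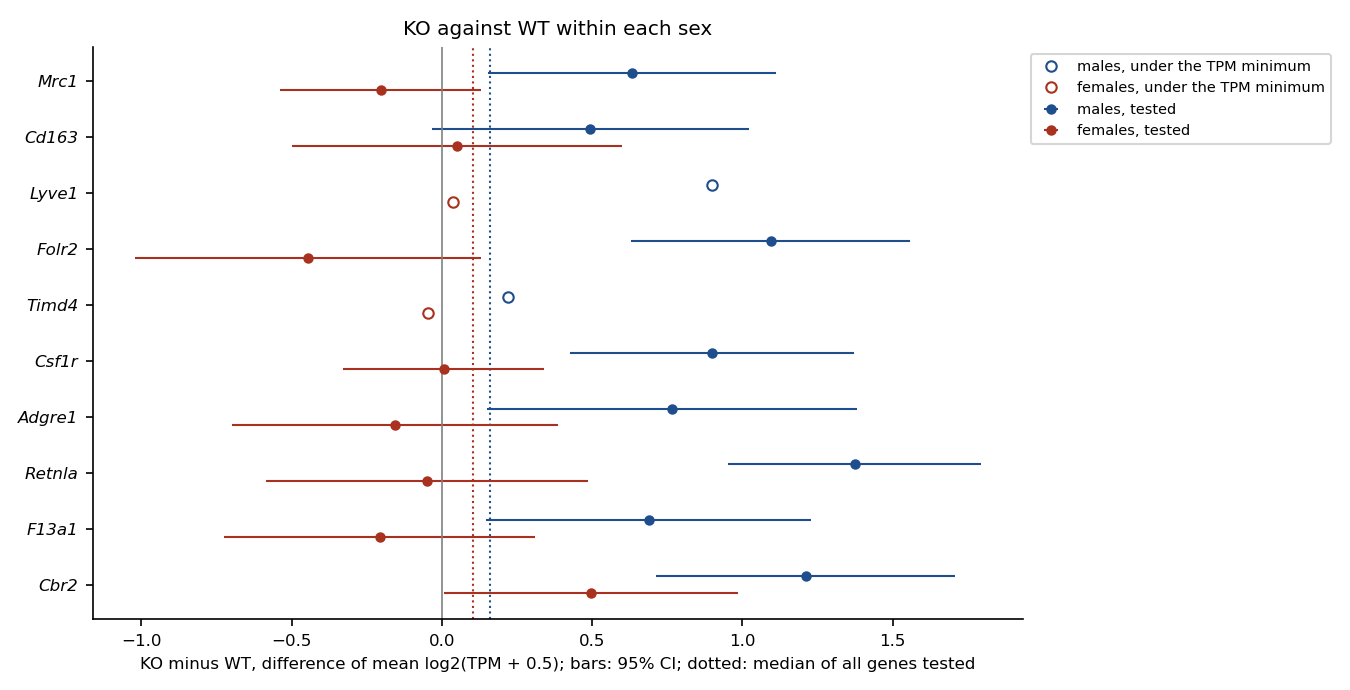
Difference of mean log2(TPM + 0.5), KO minus WT (horizontal axis), for each gene in males (blue) and females (red), with bars for the 95% CI over 4 against 4 mice and open circles for genes under the TPM minimum. The male points run from 0.22 to 1.37 and the female points from -0.45 to 0.50, beside dotted lines at the median of all genes (0.16 and 0.10).

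The difference between the sexes was examined over all 16 libraries, as the male KO difference minus the female KO difference. These values contain the male comparison and are therefore a description. All 8 tested members had a larger KO difference in males, as did 57.1% of 12210 genes, with a median of 0.89 against 0.06. *Folr2* had the largest value (1.54, 95% CI 0.83 to 2.25), followed by *Retnla* (1.42, 95% CI 0.75 to 2.10), and *Cd163* the smallest (0.44, 95% CI -0.28 to 1.16). The mean of the male and the female KO difference, which shares the same libraries, was 0.85 for *Cbr2* (95% CI 0.51 to 1.2), 0.66 for *Retnla* (95% CI 0.32 to 1.0) and 0.45 for *Csf1r* (95% CI 0.17 to 0.73). With protein-coding transcripts alone it was 0.21 for *Cbr2*, and after median-of-ratios scaling it was 0.54 for *Retnla*. Over all genes, 358 passed the adjusted threshold for this mean (315 higher and 43 lower, 2.93% of genes, limma), or 260 higher and 211 lower after median-of-ratios scaling. The count fell to 12 with library prefix as a covariate and ran from 31 to 1055 with single libraries left out, and no test of the members is given for this mean, which contains the male comparison.

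In WT mice, each of the 8 tested members had a lower mean in males than in females. These values use the male WT libraries of the KO comparison. The median log2 difference, males minus females, was -0.36, against 0.05 over 12042 genes, of which 62.3% were higher in males. *Retnla* was the tested member whose groups did not overlap, against 0.722% of genes that were lower in all males, and it was also the 1 of 8 with an unadjusted p under 0.05 (1.25% of genes in this direction). Apart from *Retnla*, the differences ran from -0.45 for *Folr2* (95% CI -1.03 to 0.14) to -0.26 for *Csf1r* (95% CI -0.72 to 0.19). No member passed the adjusted threshold, which 0.0664% of genes passed (limma). The WT males carry prefixes 5 and 9 and the WT females 8b and 10, so sex and prefix cannot be told apart in this comparison.

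Single libraries were the extreme of their group for many members at once. Male WT replicate 4 had the highest value of its group for 8 of the 10 genes, and male KO replicate 1 the lowest of its group for 9. Among females, KO replicate 4 was highest for 7 genes, and KO replicate 2 and WT replicate 4 were each lowest for 6. The male libraries of prefix 9 are 2 WT and 3 KO mice. Among them the median difference of the tested members was 0.85 against 0.14 for all genes. These libraries belong to the male comparison that was known when the list was made, so nothing is read from this value. Prefixes 5 and 10 hold male mice of 1 genotype only. In females, the median was 0.05 within prefix 10 (1 WT and 1 KO mouse) and -0.21 within prefix 8b (3 WT and 1 KO mouse), and the female libraries of prefixes 5 and 9 are KO mice only.

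Genes that macrophages of any kind express also had higher means in male KO mice. Of 16 listed pan-macrophage genes, 14 were tested; 13 had a higher mean in male KO mice (median 0.84) and 12 in female KO mice (median 0.28), against 79.9% and 62.7% of all genes. None passed the adjusted threshold in either sex (limma; 0.00821% and 0.0% of genes did). In males 9 of 14 had an unadjusted p under 0.05 in the upward direction, against 17.7% of genes, and in females 1 of 14, against 11.6%. The list was chosen with earlier results of these data known, so nothing is read from the male counts. The sum of the list ranged from 44.0 to 92.0 TPM in male WT, 103 to 156 in male KO, 50.4 to 103 in female WT and 72.9 to 98.8 in female KO mice. *C1qb*, a chain of complement C1q, averaged 11.7 TPM in male WT and 23.6 in male KO mice, and *Ctss*, the lysosomal protease cathepsin S, averaged 4.61 and 13.6. *Aif1*, which encodes the calcium-binding protein IBA1, did not share this pattern (2.32 and 2.15 TPM).

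Members were therefore also expressed relative to this list, as log2(TPM + 0.5) minus the mean over the 14 genes in the same library. The mean of the list itself was 2.0 ± 0.37 (SD, n = 4) in male WT, 2.76 ± 0.25 in male KO, 2.02 ± 0.36 in female WT and 2.25 ± 0.19 in female KO mice. *Lyve1* and *Timd4* stayed under the minimum mean of 1 TPM and are left out of the counts. Their mean TPM is near or under the added 0.5, which compresses their differences on this scale. For the other 8 members the male KO difference ran from -0.26 (*Cd163*) to 0.62 (*Retnla*). *Mrc1* (-0.12), *Adgre1* (0.01) and *F13a1* (-0.07) were close to the list, whereas *Retnla* (0.62) and *Cbr2* (0.45) had higher means in KO mice. In all, 3 of 8 had a lower mean in male KO mice, against 96.7% of genes. The list mean itself was higher in male KO mice, which lowers other genes relative to it. That share is thus largely set by the reference, and nothing is read from the count. In males the KO values of *Cbr2* were all above the WT values, against 0.197% of genes, a share that depends on the reference in the same way. These *Cbr2* values include its retained-intron transcripts. With protein-coding transcripts alone, its male KO difference, not taken relative to the list, was 0.43 in place of 1.21. The relative level was not computed for those transcripts. In females, 7 of 8 members were lower relative to the list in KO mice, against 66.1% of genes. The list mean was higher in female KO mice too (2.25 against 2.02). The female shares therefore also depend on the reference, and nothing is read from this count. The KO minus WT difference was -0.68 for *Folr2*, with no overlap (1.28% of genes), -0.44 for *Mrc1* and *F13a1*, -0.39 for *Adgre1* and 0.26 for *Cbr2*. With *Csf1r* and *Adgre1* as the reference in place of the list, the female median over the other 8 members, *Lyve1* and *Timd4* included, was 0.03 instead of -0.28 over all 10, so the female shift depends on the reference chosen. *Folr2* was then at -0.37 in females and *Cbr2* at 0.38 in males, both with overlap. In WT mice, every male was below every female relative to the list for *Retnla* (-1.35) and *Cbr2* (-0.40), against 0.183% of genes. With the other reference *Retnla* was at -1.09, again with no overlap, and *Cbr2* at -0.14 with overlap.

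**Figure D4:**
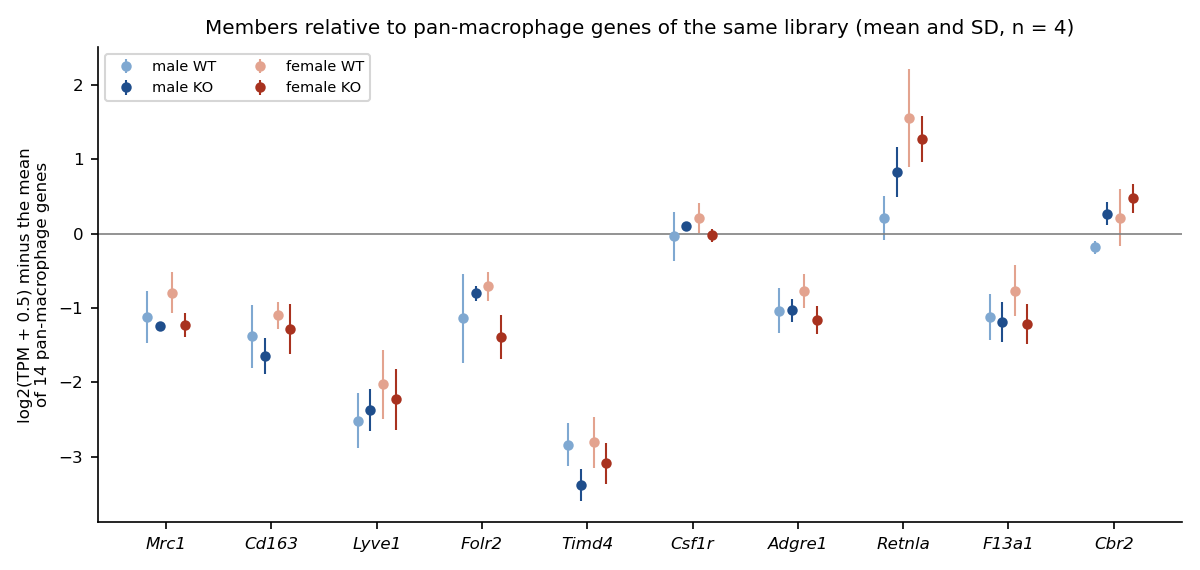
Level of each member relative to the mean of 14 pan-macrophage genes of the same library (vertical axis, log2 units), as mean and SD of 4 mice per group. *Retnla* is lowest in male WT mice (0.22) and highest in female WT mice (1.56), and *Folr2* is lowest in female KO mice (-1.39). For *Retnla*, female WT replicate 2 is at 2.44 and the other female WT mice are at 0.85 to 1.57.

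Of 23 further genes of the resident and alternatively activated programme, 14 were tested. Of these, 13 had a higher mean in male KO mice (median 0.60) and 11 in female KO mice (median 0.11), against 79.9% and 62.7% of all genes, and none passed the adjusted threshold (limma). At an unadjusted p under 0.05, 10 of 14 were higher in males, against 17.7% of genes, and 4 were higher and 1 lower in females, against 11.6% higher. Nothing is read from the male counts, because this list too was chosen with earlier results known. *Ccl6*, a chemokine of myeloid cells, averaged 2.42 TPM in male WT and 8.21 in male KO mice, but 4.05 in female WT and 3.22 in female KO mice. *Igf1*, insulin-like growth factor 1, averaged 3.89 TPM in male WT and 2.94 in male KO mice. *Selenop*, which many cell types secrete, was the most abundant of the list and averaged 175 and 194 TPM. Other defining genes were barely detected: *Vsig4* was listed at 0 in 12 libraries, *Marco* in 11 and *Il10* in 13.

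Ligands, receptors and transcription factors that act on macrophages included *Csf1*, a ligand of *Csf1r*, which averaged 3.38 TPM in male WT and 5.44 in male KO mice, and 3.50 and 3.59 in females. *Il34*, its other ligand, averaged 2.98 and 3.74 TPM in males and 2.73 and 4.67 in females. *Il13* was listed at 0 in all 16 libraries and *Il4* averaged at most 0.537 TPM in any group, so the inducers of *Retnla* could not be compared. *Stat6*, which relays both cytokines, averaged 21.5 TPM in male WT, 28.0 in male KO, 22.9 in female WT and 31.9 in female KO mice. All 9 tested genes of this list had a higher mean in male KO mice (median 0.47) and 8 in female KO mice (median 0.29), against 79.9% and 62.7% of all genes. None passed the adjusted threshold (limma), and 5 and 3 of 9 had an unadjusted p under 0.05 in the upward direction, against 17.7% and 11.6% of genes. As for the other lists, the choice was made with earlier results known, and nothing is read from the male counts.

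Of 11 genes of lipid-associated macrophages, 4 were tested in both sexes, with a median of 0.63 in males and 0.41 in females. Another 4 reached the minimum in males only, among them *Trem2* and *Gpnmb*, which did so through the KO mice and are left out of the median. *Mmp12*, macrophage elastase, also passed in males only and averaged 0.554 TPM in male WT and 3.83 in male KO mice, and 0.271 and 0.275 in females. *Acp5*, an acid phosphatase that was abundant in all groups, averaged 105 and 94.1 TPM in males. The classical inflammatory genes were mostly under the minimum, with 2 of 10 tested in males (*Nos2*, inducible nitric oxide synthase, and *Ccl2*, a monocyte chemoattractant).

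**Figure D5:**
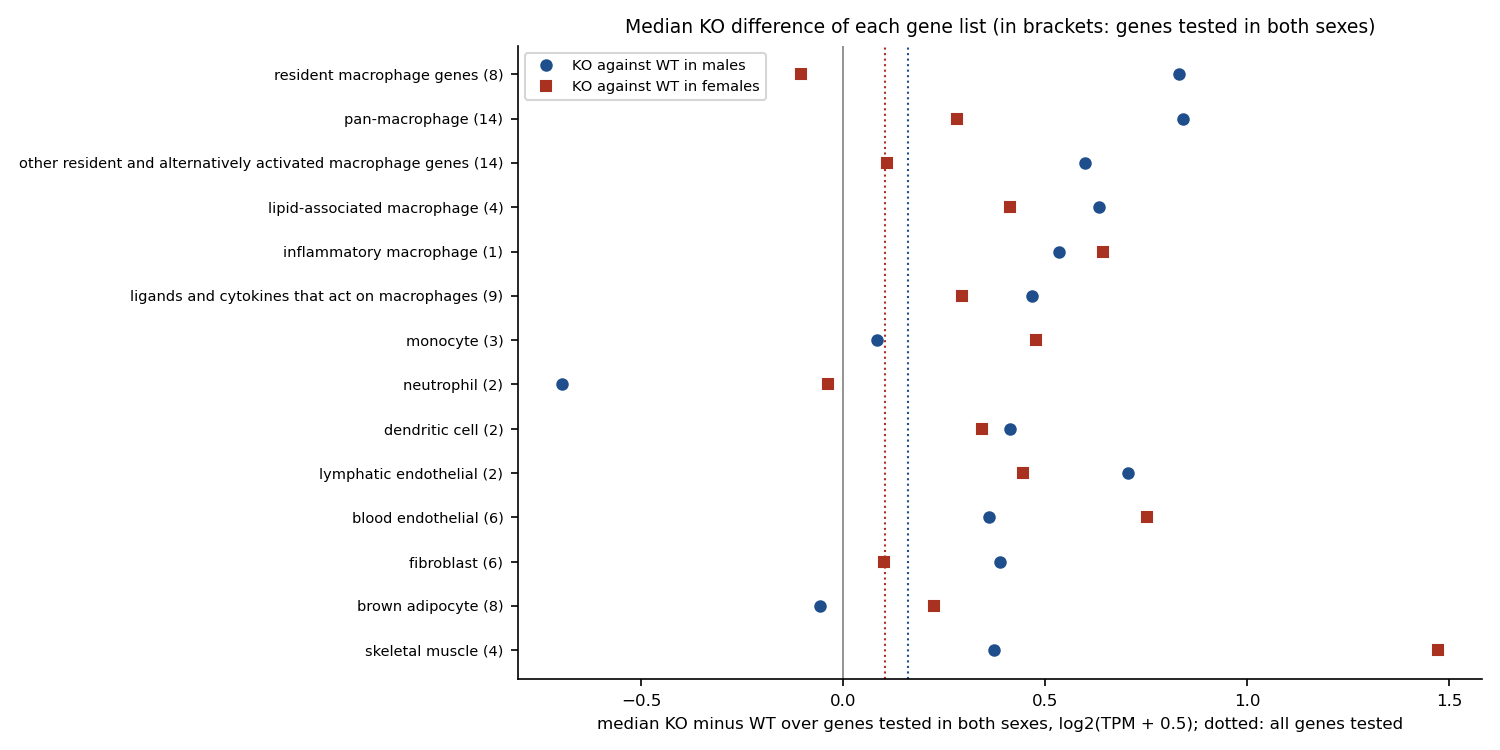
Median KO minus WT difference of log2(TPM + 0.5) over the genes of each list that were tested in both sexes (horizontal axis) in males (blue circles) and females (red squares), with their number in brackets and dotted lines at the median of all genes. The 10 resident macrophage genes (8 tested), the pan-macrophage list and the lipid-associated list lie at 0.83, 0.84 and 0.63 in males, and at -0.10, 0.28 and 0.41 in females.

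Some members are shared with other cells, so the markers of those cells are given beside them. For *Lyve1*, 6 lymphatic endothelial genes summed to 2.79 to 6.01 TPM in male WT, 2.91 to 15.6 in male KO, 5.32 to 7.99 in female WT and 3.68 to 18.6 in female KO mice, and *Prox1*, which defines the lineage, averaged at most 0.0438 TPM in any group. *Ccl21a*, a chemokine of lymphatic vessels, averaged 1.62 TPM (SD 1.31) in male WT and 5.26 (SD 4.72) in male KO mice. In females it averaged 3.39 (SD 0.317) in WT and 6.32 (SD 5.17) in KO mice, and KO and WT mice overlapped within each sex. Neutrophil genes were low (sums of 2.45 to 15.3 TPM over the 16 libraries), with *Ly6g* listed at 0 in 15 libraries, and of 8 lymphocyte genes none reached the minimum. Eosinophil genes were at or near 0: *Ccr3* and *Epx* were listed at 0 in 13 libraries each. Over genes tested in both sexes, monocyte genes had a median difference of 0.0833 in males and 0.48 in females, dendritic cell genes 0.41 and 0.34, lymphatic endothelial genes 0.70 and 0.44, and neutrophil genes -0.70 and -0.04. The monocyte medians rest on 3 genes and leave out *Ccr2*, which reached the minimum in males only. *Ccr2* averaged 0.94 TPM in male WT and 1.54 in male KO mice, and 0.96 and 0.85 in females. With it, the male monocyte median over 4 genes was 0.29. Of the eosinophil, group 2 innate lymphoid and mast cell genes, 3 of 10 were tested in females (median 0.27) and none in males. Fibroblast genes had a median difference of 0.39 in males and 0.10 in females. Blood endothelial genes had 0.36 and 0.75, and brown adipocyte genes -0.06 and 0.23. Skeletal muscle genes varied most, with sums from 0.471 to 3218 TPM between libraries. No gene of these lists passed the adjusted threshold within either sex (limma), and the part of these cells in the member values was not tested.

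The members followed one another across libraries to different degrees. The correlation of each member's log2(TPM + 0.5) with the mean of the others over the 16 libraries (Pearson's r, which includes the group differences) was highest for *Csf1r* (0.917), *Mrc1* (0.887), *F13a1* (0.881) and *Adgre1* (0.874). It was lowest for *Timd4* (0.512) and *Retnla* (0.650). After each group's mean was subtracted, r was 0.865 for *Adgre1* and 0.860 for *F13a1*, but 0.441 for *Retnla*, 0.257 for *Lyve1* and 0.0447 for *Timd4*. Among all other genes with a mean of at least 1 TPM, the 8 most like the mean of the members were *Col5a2* (0.935), *Ccl6* (0.917), *Clec4a1* (0.907), *Fcgr3* (0.907), *C1qc* (0.894), *Col5a1* (0.883), *Cd68* (0.880) and *Lyz2* (0.878). Of these, *Col5a2* and *Col5a1* encode chains of type V collagen, and the other 6 are myeloid genes. *Col5a2* averaged 3.42 TPM in male WT, 5.92 in male KO, 4.58 in female WT and 4.62 in female KO mice. These correlations are descriptions over 16 points that share the library total and its mitochondrial share.

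Promoter sequences are shown for *Retnla* and *Cbr2*, which had the largest male differences on the log2(TPM + 0.5) scale, and for *Mrc1*, which had one of the smaller ones (0.63). With protein-coding transcripts alone the order of the last 2 was reversed, at 0.43 for *Cbr2* and 0.56 for *Mrc1*. They are the 250 bases before the annotated start, 5′ to 3′ on the gene's strand, from RefSeq (build GRCm38.p6), whose promoter table held 7 of the 10 genes. Capitals mark GAGGAA, the core recognised by PU.1, the lineage factor of macrophages, on either strand (read as TTCCTC on the other), and TTCNNNNGAA, the motif of STAT6.
Retnla, chr16:48842359-48842608, plus strand: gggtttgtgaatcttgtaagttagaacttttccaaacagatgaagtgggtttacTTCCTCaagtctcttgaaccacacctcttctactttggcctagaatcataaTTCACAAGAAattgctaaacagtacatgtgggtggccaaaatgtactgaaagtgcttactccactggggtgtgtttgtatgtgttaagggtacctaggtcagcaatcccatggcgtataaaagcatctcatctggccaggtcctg
Mrc1, chr2:14229164-14229413, plus strand: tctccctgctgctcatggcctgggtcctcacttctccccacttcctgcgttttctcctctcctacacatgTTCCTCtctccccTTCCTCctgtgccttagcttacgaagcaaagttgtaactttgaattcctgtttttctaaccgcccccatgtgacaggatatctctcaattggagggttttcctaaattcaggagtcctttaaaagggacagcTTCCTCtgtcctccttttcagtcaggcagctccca
Cbr2, chr11:120732022-120732271, minus strand: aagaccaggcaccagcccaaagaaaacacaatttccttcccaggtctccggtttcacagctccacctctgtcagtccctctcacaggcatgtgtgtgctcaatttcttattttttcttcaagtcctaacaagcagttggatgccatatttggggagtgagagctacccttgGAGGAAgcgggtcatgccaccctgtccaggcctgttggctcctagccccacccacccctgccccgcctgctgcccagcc
*Retnla* held a PU.1 core 196 to 191 bases before the start and the STAT6 motif 145 to 136 bases before it. *Mrc1* held 3 PU.1 cores, at 180 to 175, 167 to 162 and 35 to 30 bases before the start, and *Cbr2* held 1, at 79 to 74. The PU.1 core was in 4 of the 9 windows of these 7 genes, some of which have several starts, and in 23.3% of 32851 promoter windows of this length, and the STAT6 motif was in 1 of 9 (*Retnla*) and in 5.85%. The motifs do not overlap each other in these windows, and a match is a description of the letters only.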

How the data were processed

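Sex, genotype and replicate number of the 16 libraries come from the labels. The authors prepared stranded poly(A) libraries, quantified single-end reads with kallisto (0.46.2, GRCm39 per the submitters' processing notes) and deposited TPM per transcript; the annotation release is not given in the sources used here. Of 137438 identifiers, 135051 matched GENCODE mouse release 21 without version (37 with it) and were summed per gene, with 1 identifier kept per symbol; identifiers without a match were left out. No count test could be run on TPM, and depth is unknown.

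log2(TPM + 0.5) was fitted with limma 3.58.1 (R 4.3.3; lmFit, eBayes with trend) over all genes with a mean of at least 1 TPM in a comparison, with Benjamini-Hochberg adjustment over all of them and a threshold of 0.05. Fold changes on this scale understate those of low genes. The fits were tested on simulated data. P-values set a difference of group means against the spread between these mice only. The members and lists were chosen with earlier results of these data known. Beside the members, the text names from each of 15 lists the 2 genes with the highest mean TPM or those with the highest and lowest male difference, defining markers at or near 0, the 8 genes most like the members, and checks of genotype, sex and tissue; others were picked after their values were seen. Tables were made with Python 3.11.15 and pandas 2.3.3. Alternatives were a pseudocount of 1 or 0.1, a minimum of 5 TPM or none, 2 rescalings, no trend, library prefix as covariate, replicate block, all libraries in 1 fit, another reference for relative levels, each library left out in turn and, added after the data were seen, protein-coding transcripts only.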

Additional observations from a re-analysis of the deposited data

Results flagged for a closer look

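*Retnla* in female WT replicate 2 was 19.4 TPM, far above the other 3 female WT mice (9.28 to 9.99 TPM), with a gap of 0.93 of the group's range to the nearest of them. It was the only such value among 40 groups of 4 examined (10 genes in 4 groups), of which chance alone marks about 1 in 20. Without this library the female KO difference of *Retnla* was 0.20 in place of -0.05, and the difference of male from female WT mice was -1.12 in place of -1.37. The same mouse was not the highest of its group for *Csf1r* (3.43 TPM, the lowest) or *Cbr2* (3.63 TPM, the third).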

How the results depend on the processing

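Of 1055 alternative values, 954 kept their direction and their side of the threshold (or stayed near the reported value), 54 counts or medians moved, 31 member differences crossed the adjusted threshold and 16 changed sign. Of the 31, 26 were in the mean effect and 4 in males, where no call on members is reported, and 1 in WT sex (*Retnla*). The 16 sign changes were in females, where no value passed: *Cd163* (0.05) was -0.016 after median-of-ratios scaling and -0.0841 after rescaling without mitochondrial transcripts, *Csf1r* (0.01) was -0.0758, -0.1391 and, with library prefix as a covariate, -0.0576, and *Cbr2* (0.50) was -0.0153 with protein-coding transcripts. With libraries left out, *Adgre1* ran from -0.29 to 0.0576, *Cd163* from -0.0655 to 0.26, *Csf1r* from -0.0779 to 0.10 and *Retnla* from -0.15 to 0.20. The number of genes past the adjusted threshold in males (1) was 2 with a pseudocount of 0.1, 0 with no TPM minimum, 3 after median-of-ratios scaling, 12 after rescaling without mitochondrial transcripts, 6 with prefix as a covariate, 40 with all 16 libraries, 18 with protein-coding transcripts and 0 to 5 with libraries left out. In females (0) it was 8 with the prefix, 5 with all libraries and 0 to 9 with libraries left out. For the difference between the sexes (0) it was 1 with no trend and 0 to 3. For the mean effect (358) it was 54 with no minimum, 177 with a minimum of 5, 543 without mitochondrial transcripts, 12 with the prefix, 719 with protein-coding transcripts and 31 to 1055. For WT sex (8) it was 3 with a minimum of 5, 4 with protein-coding transcripts and 5 to 11; no fit with prefix could be made there. The minimum of 5 keeps 1 to 3 members and gave medians of 1.21, 0.22, 0.76 and -1.37 (males, females, mean effect, WT sex). Without mitochondrial transcripts the median member level was 2.89, 5.31, 4.23 and 3.0 TPM (WT and KO males, then WT and KO females). With *Csf1r* and *Adgre1* as reference, the female median relative to other macrophage genes was 0.0263 in place of -0.28. The cause was not tested in any of these.

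Same-numbered mice did not pair (correlations from -0.117 to 0.349), so the replicate block is given once: 0 genes in males, 1 in females, 0 for the difference between the sexes, 518 for the mean effect and 7 for WT sex. With libraries left out, the members' median ran from 0.72 to 1.02 in males, -0.19 to -0.03 in females, 0.79 to 1.06 for the difference between the sexes, 0.26 to 0.41 for the mean effect and -0.49 to -0.27 for WT sex. Unknown depth limits the low genes *Lyve1* and *Timd4* most.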
